A study of Mus musculus with 5 samples.

Results

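Paraxial mesoderm is the embryonic tissue that flanks the neural tube, and it buds off in blocks called somites that later form vertebrae, skeletal muscle and dermis. Unsegmented tissue at the tail end, the presomitic mesoderm, is patterned by Tbx6 and Mesp2, new somites are shaped and maintained by Tcf15, Meox1 and Meox2, and the ventral part of a somite, the sclerotome, switches on Pax1. Foxc1 and Foxc2 act in presomitic mesoderm, somites and head mesenchyme, and Twist1 and Prrx1 are regulators of loose mesenchyme. These 10 genes were chosen by name, and all 10 were found among the 23284 gene symbols of the count tables. They were followed in RNA of dissected mouse embryo neural tubes, which lie beside the somites and were obtained by hand with the help of enzymes.

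The samples came from matings of EpoR+/- mice, which lack 1 copy of the erythropoietin receptor gene, and comprised 2 EpoR+/+ (wild type), 1 EpoR+/- (heterozygote) and 2 EpoR-/- (EpoR-null) samples. All samples are labelled E8.5 (the paper's methods state a later stage), and none was treated. The null allele is inherited and not confined to the neural tube. The wild type and heterozygous samples together were the 3 littermate controls, and the comparison asked which genes depend on the receptor. Whether a sample was 1 embryo or several was not stated in the sources used here, so p-values measure only the spread between these samples.

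The 10 genes were scarce in these libraries, and their level differed several-fold between single libraries, also within the EpoR-null genotype. In summed CPM (counts of a gene per 1e+06 reads of its library, after TMM scaling between libraries), the 10 genes reached 79.2 in wild type replicate 1, 67.5 in wild type replicate 2, 11.5 in the heterozygote, 158 in EpoR-null replicate 1 and 48.9 in EpoR-null replicate 2. The heterozygote held 6.4-fold less of this RNA than the wild type mean, and the EpoR-null samples lay on either side of the wild type samples. The heterozygote was also 19.4-fold under the wild type mean in the summed level of 6 endothelial markers and 19.3-fold under in that of 7 primitive blood markers. For ectoderm and endoderm epithelium markers and for neural crest markers it was 3.11-fold and 1.4-fold under. The sum of 10 neural progenitor markers was 0.866 times as high in wild type as in the heterozygote. For lists of other somite, mesenchyme and presomitic genes that ratio was 1.07, 1.15 and 0.892. The genes with the most reads in those 3 lists are also genes of the neural tube or neural crest. Whether a different content of neighbouring tissue in that library has a part in the 6.4-fold difference was not tested, and with 1 heterozygote it cannot be told apart from genotype. No member passed the test between EpoR-null and control neural tubes. In a bulk sample, fewer cells of a type and less RNA per cell cannot be told apart.

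Reads counted on genes ranged from 19316126 to 41169218 per library, and 3 reads corresponded to between 0.0715 and 0.152 CPM. The targeted gene, Epor, had 57, 68 and 11 reads in wild type replicates 1 and 2 and the heterozygote (2.35, 1.62 and 0.476 CPM) and 7 and 19 reads in EpoR-null replicates 1 and 2 (0.354 and 0.669 CPM). Both EpoR-null libraries were below both wild type libraries, and the heterozygote lay between the EpoR-null libraries. The labelled tissue was borne out by neural progenitor markers, with Sox2 at 220 to 309 CPM and Nes at 368 to 777 CPM over the 5 libraries.

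Meox2 and Twist1 were lowest in the heterozygote, and Tbx6 was not. Mesp2 was also lowest there, with 1 read, but was close to the limit of detection. The stretches before the start sites of these 4 members are shown for description, and their relation to the levels was not tested. They are the 250 bases before the RefSeq start site on GRCm38.p6, in lower case, with E-box matches (CANNTG, the letters bound by bHLH factors such as Twist1, Tcf15 and Mesp2) in capitals, and they lie at chr12:37108290-37108539 (Meox2, plus strand), chr12:33957421-33957670 (Twist1, plus strand), chr7:126781233-126781482 (Tbx6, plus strand) and chr7:79810477-79810726 (Mesp2, plus strand).
Meox2: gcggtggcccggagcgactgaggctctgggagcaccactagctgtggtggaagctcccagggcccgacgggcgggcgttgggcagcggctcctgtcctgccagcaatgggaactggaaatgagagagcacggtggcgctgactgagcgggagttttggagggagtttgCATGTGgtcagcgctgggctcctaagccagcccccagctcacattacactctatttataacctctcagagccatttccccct
Twist1: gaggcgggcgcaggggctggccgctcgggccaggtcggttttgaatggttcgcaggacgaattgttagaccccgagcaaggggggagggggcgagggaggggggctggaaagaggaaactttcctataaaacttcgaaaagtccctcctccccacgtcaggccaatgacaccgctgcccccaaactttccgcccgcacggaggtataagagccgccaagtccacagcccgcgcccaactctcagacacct
Tbx6: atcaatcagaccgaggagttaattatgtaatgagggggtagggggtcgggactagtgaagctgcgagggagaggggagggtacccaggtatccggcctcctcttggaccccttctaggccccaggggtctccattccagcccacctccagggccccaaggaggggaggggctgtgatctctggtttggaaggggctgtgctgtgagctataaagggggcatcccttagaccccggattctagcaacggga
Mesp2: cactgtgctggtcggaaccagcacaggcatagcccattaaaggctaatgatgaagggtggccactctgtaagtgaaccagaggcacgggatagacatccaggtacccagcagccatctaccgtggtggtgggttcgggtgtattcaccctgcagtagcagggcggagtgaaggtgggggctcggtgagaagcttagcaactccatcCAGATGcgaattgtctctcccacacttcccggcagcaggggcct
Of the 10 members, 7 had such a window (Meox2, Tbx6, Mesp2, Pax1, Foxc1, Twist1 and Prrx1). An E-box was found in 2 of the 7, in Meox2 from base -82 and in Mesp2 from base -44, while 66.2% of all 32851 windows of this length held one. The T-box letters TCACAC, read on both strands, were in none of the 7 windows and in 12.3% of all windows, and the forkhead letters TGTTTAC, likewise read on both strands, were in none of the 7 and in 3.17% of all. The GC content of the 7 windows ran from 47.6% (Prrx1) to 70.8% (Foxc1), against a median of 52.4% over all windows (quartiles 45.2% and 61.2%).

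Levels of different genes were compared only per kilobase of annotated exon (CPM per kb, exon lengths of GENCODE M21). In wild type neural tubes Meox1, a somite homeobox gene, was highest at 9.51 and 9.24 CPM per kb in replicates 1 and 2, and Twist1 followed at 9.19 and 7.62 CPM per kb. Foxc1 (mean 2.06), Pax1 (1.96), Foxc2 (1.83), Meox2 (1.34) and Tcf15 (1.24 CPM per kb) formed a middle group in which each gene overlapped its neighbour in this order. Prrx1 (0.714), Tbx6 (0.261) and Mesp2 (0.116 CPM per kb) were lowest and did not overlap each other or Tcf15. The exon length used for Prrx1 is 11.066 kb, the longest of the 10, and the gene model the authors counted on may be shorter. In the wild type libraries the genes of formed somites and of mesenchyme thus outranked both presomitic regulators.

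Meox1 (chromosome 11 of GRCm38, 101877510 to 101894374, minus strand) had 21.2 and 20.6 CPM in wild type replicates 1 and 2, 5.66 CPM in the heterozygote, and 36.4 and 17.6 CPM in EpoR-null replicates 1 and 2. Its EpoR-null values lay above and below the wild type values, and the heterozygote was lowest. The second Meox gene, Meox2 (chromosome 12, 37108540 to 37179534, plus strand), had 3.64 and 2.69 CPM in wild type, 0.476 CPM in the heterozygote and 10.4 and 1.55 CPM in EpoR-null neural tubes. Between the EpoR-null replicates Meox2 differed 6.72-fold and Meox1 2.06-fold, while between the wild type replicates they differed 1.35-fold and 1.03-fold. Tcf15 (chromosome 2, 152143561 to 152149097, plus strand), a bHLH factor needed for epithelial somites, had 1.28 and 1.14 CPM in wild type, 0.346 CPM in the heterozygote and 2.32 and 1.16 CPM in EpoR-null neural tubes. These Tcf15 values rest on 8 to 48 reads a library.

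Pax1 (chromosome 2, 147361925 to 147393295, plus strand), the sclerotome paired-box gene, had 9.67 and 7.96 CPM in wild type, 0.605 CPM in the heterozygote and 20.1 and 4.79 CPM in EpoR-null neural tubes. The heterozygote held 14 Pax1 reads, a CPM 14.6-fold under the wild type mean. Pax1 shares 183 bases of exon with AI646519, annotated on the opposite strand, and since the strand setting of the counting was not stated the reads of that stretch cannot be assigned. Foxc1 (chromosome 13, 31806633 to 31812476, plus strand) had 13.1 and 10.9 CPM in wild type, 1.12 CPM in the heterozygote and 35.4 and 8.13 CPM in EpoR-null neural tubes. Foxc2 (chromosome 8, 121116171 to 121118895, plus strand), its close relative, had 3.97 and 6.03 CPM in wild type, 0.303 CPM in the heterozygote and 8.44 and 4.33 CPM in EpoR-null neural tubes. For both forkhead genes EpoR-null replicate 1 was highest and the heterozygote lowest, and Foxc2 was the only tested member that was higher in wild type replicate 2 than in replicate 1.

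Twist1 (chromosome 12, 33957671 to 33959829, plus strand), a bHLH regulator of mesenchyme, had 15 and 12.4 CPM in wild type, 1.43 CPM in the heterozygote and 30.3 and 8.49 CPM in EpoR-null neural tubes. Prrx1 (chromosome 1, 163245119 to 163313710, minus strand), a homeobox gene of limb and face mesenchyme, had 10.7 and 5.1 CPM in wild type, 0.562 CPM in the heterozygote and 13.7 and 2.11 CPM in EpoR-null neural tubes. Both genes are also expressed in mesenchyme that derives from neural crest, so that they do not mark paraxial mesoderm alone. Prrx1 was the least stable member in wild type, with a 2.1-fold difference between the replicates.

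The presomitic pair stood apart from the other members in its low level in wild type. Tbx6 (chromosome 7, 126781483 to 126785560, plus strand), a T-box factor of presomitic mesoderm, had 0.537 and 0.405 CPM in wild type, 0.908 CPM in the heterozygote and 0.707 and 0.423 CPM in EpoR-null neural tubes. These values rest on 12 to 21 reads a library, with a 95% Poisson interval of 0.562 to 1.39 CPM in the heterozygote and of 0.236 to 0.648 CPM in wild type replicate 2, the lowest library. Whether Tbx6 differed between the heterozygote and wild type was not tested. Mesp2 (chromosome 7, 79810727 to 79813439, plus strand), which sets the border of the next somite, had 4, 12, 1, 4 and 9 reads in wild type replicates 1 and 2, the heterozygote and EpoR-null replicates 1 and 2. Its lowest value, 0.0432 CPM, was that of the heterozygote. Its highest value, 0.317 CPM in EpoR-null replicate 2, came from 9 reads. Neither gene reached the minimum for testing (a CPM above 1 in at least 2 libraries), and the remaining 8 members did so in both wild type libraries. In a fit of EpoR-null against control samples without this minimum, the log2 fold change was -0.15 for Tbx6 (SE 0.586, exact test of edgeR, FDR 1) and 0.53 for Mesp2 (SE 0.803, FDR 0.968).

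**Figure D1:**
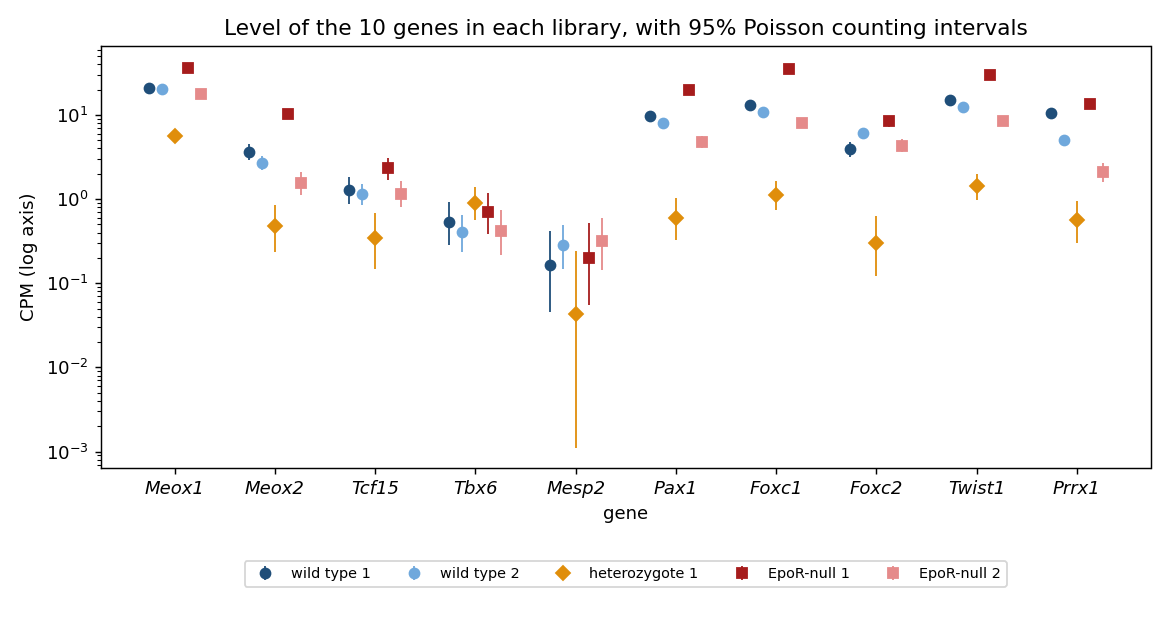
CPM of the 10 genes on a log axis, 1 point per library, with 95% Poisson intervals that cover counting error only. For 8 genes the heterozygote (orange diamond) is lowest and EpoR-null replicate 1 (dark red square) highest, while for Tbx6 the heterozygote has the highest point, 0.908 CPM.

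The heterozygote was the lowest library for all 8 tested members. A rule chosen after the values were seen counted the genes for which the heterozygote lay more than 2-fold under the lowest of the other 4 libraries. All 8 tested members met it, against 2.65% of all 12703 genes tested, and all 8 also lay more than 3-fold under, against 1.93% of all genes. For 0 of the 8 was the heterozygote more than 2-fold over the highest other library (0.0157% of all genes). The shortfall ranged from 3.5-fold for Tcf15 and 3.69-fold for Meox1 to 16.5-fold for Foxc2, each relative to the wild type mean. With 1 heterozygote, a test of heterozygote against wild type has to assume that it varies like the other genotypes. Under that assumption, added after the data were seen, the quasi-likelihood F-test of edgeR called 0 genes and 0 members. Before adjustment 6 of the 8 members were under 0.05, as were 3.27% of all genes. The likelihood-ratio test of edgeR called Foxc2 (log2 difference -4.03, FDR 0.000694), Pax1 (-3.85, FDR 0.0334) and Twist1 (-3.26, FDR 0.0382), that is 3 of 8 members against 1.54% of all genes called lower (0.00787% were called higher, with 0 members). These calls depended on which libraries were in the fit. Fewer members, and fewer of all genes, were called without either wild type replicate. More members, and more of all genes, were called without either EpoR-null replicate.

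The heterozygote also differed from the other libraries in which of the 10 genes made up the sum. Meox1 made up 26.8% and 30.5% of the reads of the 10 genes in wild type, 23.1% and 36% in EpoR-null replicates 1 and 2, and 49.4% in the heterozygote (exact binomial interval 43.3% to 55.6% of 265 reads). Tbx6 made up 7.92% in the heterozygote (interval 4.97% to 11.9%) and from 0.448% to 0.863% in the other libraries. A share rises where the sum falls more than the gene, and the sum was 6.4-fold under the wild type mean there. In CPM, Meox1 was 3.69-fold under that mean. The Tbx6 interval in the heterozygote (0.562 to 1.39 CPM) overlapped that of wild type replicate 1 (0.286 to 0.918 CPM). Twist1 took 17.3% to 19.2% in the wild type and EpoR-null libraries and 12.5% in the heterozygote, where its interval (8.73% to 17%) overlapped that of EpoR-null replicate 2 (15.4% to 19.4%). Pax1 took 9.78% to 12.7% in those 4 libraries and 5.28% in the heterozygote, and its interval there (2.92% to 8.71%) likewise overlapped that of EpoR-null replicate 2 (8.27% to 11.5%). The intervals cover counting error only, and PCR copies among the reads are not independent molecules.

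**Figure D2:**
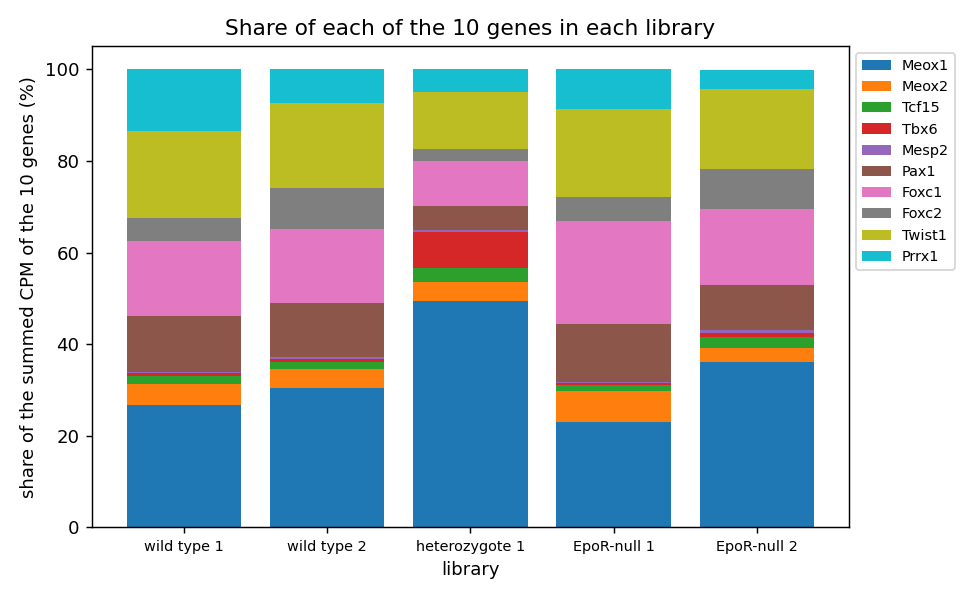
Stacked bars of the share (%) each gene takes of the summed CPM of the 10 genes, 1 bar per library. In the heterozygote Meox1 fills 49.4% of the bar and Tbx6 7.92%, both more than in any other library.

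The comparison the study was built on, EpoR-null against the 3 controls, was made with TMM normalization and the exact test of edgeR, and a gene was called where p < 0.001 and FDR < 0.05 both held. Of the 8 tested members 0 were called, against 4.83% of all genes tested (0.953% called higher and 3.87% called lower). Before adjustment 0 of the 8 were under 0.05 in that test, against 19.9% of all genes, and 0 in the quasi-likelihood F-test, against 24%. The quasi-likelihood F-test and likelihood-ratio test of edgeR and DESeq2 also called 0 of the 8 (0%, 4.94% and 8.09% of all genes). A quasi-likelihood fit with the replicate number as a block also called 0 of the 8 (2.29%). So did a likelihood-ratio test of EpoR-null against wild type, with the heterozygote as its own group in the fit (2.03%). For none of the 8 members did the EpoR-null libraries lie wholly above or below the controls, which 21.2% of all genes did upwards and 22.1% downwards. The same held against the wild type libraries alone (0 of 8, with 23.9% of all genes upwards and 24.2% downwards). The log2 fold changes of all 8 were at least 0.5 (9.83% of all genes) and so above 0 (56.2% of all genes), from 0.54 for Prrx1 to 1.39 for Meox2, with a median of 0.95 against 0.06 over all genes tested. Their standard errors ran from 0.635 to 1.17, and every 95% interval included 0.

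Meox1 averaged 15.8 ± 8.8 CPM over the controls (SD, n = 3) and 27 ± 13.3 CPM over the EpoR-null samples (SD, n = 2), with a log2 fold change of 0.77 (95% interval -0.47 to 2.02, exact test of edgeR, FDR 0.525). Meox2 averaged 2.27 ± 1.62 and 5.98 ± 6.26 CPM, and Foxc1 8.39 ± 6.38 and 21.7 ± 19.2 CPM, over the same samples. These are the members with the greatest fold changes, 1.39 (interval -0.62 to 3.40, FDR 0.467) and 1.37 (interval -0.63 to 3.37, FDR 0.47). The intervals of all 8 members reach from a lower to a several-fold higher level, so that neither an increase nor a decrease was resolved in these libraries.

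Which libraries were in the fit set the size and the sign of these values. Without the heterozygote the 8 estimates ran from 0.00 (Prrx1) to 0.92 (Meox2), with FDR from 0.701 to 1 in the exact test of edgeR and a median of 0.50. Without EpoR-null replicate 1, 5 of the 8 turned negative: Prrx1 (-1.37), Meox2 (-0.55), Pax1 (-0.35), Twist1 (-0.18) and Foxc1 (-0.05). Without EpoR-null replicate 2 all 8 were positive, from 1.2 for Meox1 to 2.19 for Meox2. No member was called in any of these fits, in which 2.02%, 18.5% and 7.81% of genes were called.

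**Figure D3:**
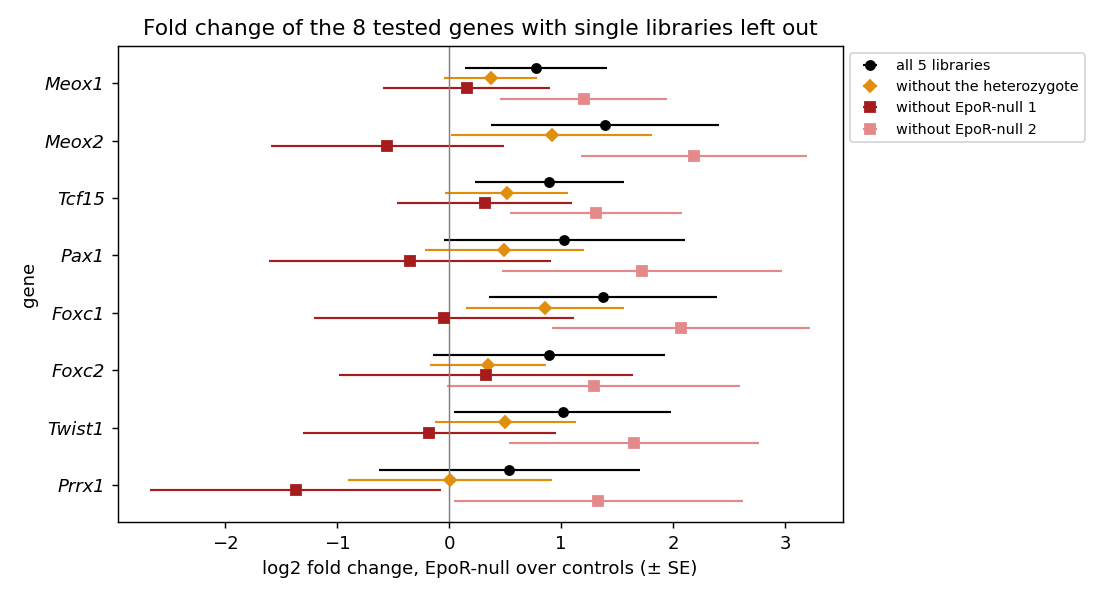
Log2 fold change of EpoR-null over control neural tubes (x axis, ± SE) for the 8 tested genes, from the fit of all 5 libraries and with single libraries left out. The estimates without EpoR-null replicate 1 run from -1.37 (Prrx1) to 0.33 (Foxc2), those without EpoR-null replicate 2 from 1.2 to 2.19.

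The replicates of the EpoR-null genotype differed from each other in the same direction across the tested members. EpoR-null replicate 1 had at least 2-fold more than replicate 2 for 6 of the 8 members (Foxc1, Meox1, Meox2, Pax1, Prrx1 and Twist1), against 8.56% of all genes, and ratios ran from 1.95-fold (Foxc2) to 6.72-fold (Meox2). The full order EpoR-null replicate 1, wild type replicate 1, wild type replicate 2, EpoR-null replicate 2, heterozygote held for those 6 members and for 1.17% of all genes, a rule also chosen after the values were seen. All 8 members had EpoR-null replicate 1 highest and the heterozygote lowest, against 6.28% of all genes. For 0 of the 8 did EpoR-null replicate 2 exceed replicate 1 by 2-fold, against 2.35% of all genes.

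By the distance between profiles (root mean square difference of log2 CPM after centring on each gene's mean, over the 5 libraries), the non-members nearest to the summed profile of the 10 genes were S1pr3 (0.153), Foxd1 (0.196), H19 (0.201), Emid2 (0.241) and Pdgfrb (0.266), among 9123 genes with a mean of at least 10 CPM. S1pr3, a sphingosine phosphate receptor gene, had 17.1 and 14.8 CPM in wild type, 1.86 CPM in the heterozygote and 34.5 and 7.92 CPM in EpoR-null replicates 1 and 2. H19, an imprinted non-coding RNA, went from 54 CPM in the heterozygote to 687 CPM in EpoR-null replicate 1. The 8 tested members lay between 0.101 (Twist1) and 0.693 (Tcf15) from the sum, and 63 of the 9123 genes lay no farther from it than Tcf15. Tbx6 (1.36) and Mesp2 (1.12) lay farther off. Before log2 was taken, 0.5 was added to each CPM, which flattens the profiles of genes with low levels. Mesp2 did not exceed 0.317 CPM, so its distance does not show that its course differed. The profile of Tcf15 (0.346 to 2.32 CPM) is damped in the same way.

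Other genes of the same tissue were read from lists of known markers. In the exact test of edgeR, 0 of the 8 tested genes of the presomitic and segmentation clock list, 0 of 10 tested somite compartment genes and 0 of 11 tested mesenchyme genes passed in either direction, with median log2 fold changes of 0.08, 0.36 and 0.60. The core presomitic genes were almost absent: Msgn1 had no read in 4 of the 5 libraries, and Mesp1, Hes7, Ripply1 and Ripply2 did not exceed 0.207 CPM in any. The muscle determination genes Myf5, Myod1, Myf6 and Myog stayed at or below 0.143 CPM. The genes with the most reads were the Notch ligand Dll1 (101 to 143 CPM) and the Notch target Nrarp (100 to 164 CPM) in the presomitic list, Pax3 (60.1 to 86.7 CPM) and Sox9 (35.2 to 64.6 CPM) in the somite list, and Vim (884 to 1360 CPM) and Zeb2 (61.2 to 123 CPM) in the mesenchyme list. All 6 are also genes of the neural tube or neural crest, and none of them was lowest in the heterozygote.

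The order of libraries that 6 of the 8 tested members had was found for 4 of 10 tested somite genes, 3 of 11 mesenchyme genes and 1 of 8 presomitic genes (1.17% of all genes), so that most genes of each list did not have it. Of those that did, Tbx18 and Col3a1 are given as examples chosen after their values were seen. Tbx18, a marker of the anterior part of each somite, had 2.81 and 2.64 CPM in wild type, 0.0865 CPM in the heterozygote and 7.02 and 0.916 CPM in EpoR-null replicates 1 and 2. Col3a1, a fibrillar collagen gene of mesenchyme, had 118 and 99.8 CPM in wild type, 7.69 CPM in the heterozygote and 228 and 36.1 CPM in EpoR-null neural tubes. The heterozygote lay more than 2-fold under every other library for 3 of 10 tested somite genes and 5 of 11 tested mesenchyme genes, but for 0 of 8 tested presomitic and clock genes. The tail-end regulator Cdx2, also picked after its values were seen, took another course, with 3.02 and 1.41 CPM in wild type, 2.9 CPM in the heterozygote, 0.152 CPM in EpoR-null replicate 1 and 10 CPM in replicate 2. Its order in the EpoR-null replicates was the reverse of that of Tbx18 and Col3a1.

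Endothelial and primitive blood markers moved with the members in the heterozygote. Lists of other tissues did so in part or not at all, or held too few tested genes to judge. All 6 endothelial markers and all 6 tested primitive blood markers lay more than 2-fold under every other library in the heterozygote, with summed levels of 11.4 CPM against 113 to 268 CPM for endothelium and 43.8 CPM against 602 to 1690 CPM for blood. Cdh5, the endothelial cadherin, had 1.64 CPM in the heterozygote and 33 to 76.9 CPM elsewhere, and Kdr, a VEGF receptor gene, had 6.14 CPM against 30.3 to 85.9 CPM. The embryonic globin genes Hbb-y and Hba-x had 15.8 and 14.5 CPM in the heterozygote, against 211 to 801 CPM and 227 to 536 CPM. In the notochord list only 1 of 5 tested genes met this rule. That gene, T, the brachyury gene, picked after its values were seen, had 0.519 CPM in the heterozygote and 6.77 to 17.8 CPM elsewhere. Shh (30.6 to 45.7 CPM) and Foxa2 (13.8 to 26.3 CPM), which the floor plate of the neural tube also expresses, showed no such gap. Neither did Chrd (4.15 CPM in the heterozygote, 2.46 to 4.95 CPM over the libraries) and Nog (4.71 CPM, 2.42 to 9.58 CPM). Noto, below the minimum for testing, had 7 and 8 reads in wild type replicates 1 and 2 and 0 in the heterozygote. It had 0 and 38 reads in EpoR-null replicates 1 and 2. The rule was met by 0 of 3 tested intermediate mesoderm genes and 0 of 1 tested lateral plate genes. The remaining genes of these lists, 5 and 12 genes in full, were below the minimum for testing. These counts therefore cannot tell whether either tissue followed the members. For neural crest the heterozygote lay more than 2-fold under every other library for 3 of 7 genes, and for the ectoderm and endoderm epithelium list for 3 of 5 tested genes. Of their genes with the most reads, Ets1 (12.8 CPM against 51.9 to 82.4 CPM), Krt8 (1.47 CPM against 7.48 to 16.5 CPM) and Krt18 (3.03 CPM against 5 to 11.9 CPM) were lowest in the heterozygote, and Ednrb (139 CPM against 79.9 to 154 CPM) was not. Neural progenitor markers did not share this pattern: 0 of 10 met the rule, and their sum was 1840 CPM in the heterozygote against 1490 to 1750 CPM in the other libraries.

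Against 8.56% of all genes, EpoR-null replicate 1 had at least 2-fold more than replicate 2 for 7 of 10 tested somite compartment genes, 5 of 11 mesenchyme genes and 2 of 8 presomitic genes. The same held for 2 of 3 intermediate mesoderm, 1 of 1 lateral plate, 1 of 5 notochord, 0 of 5 epithelium, 3 of 6 endothelial, 1 of 6 blood, 2 of 7 neural crest and 2 of 10 neural progenitor genes. Of the lateral plate and cardiac markers Isl1, which is also expressed in newborn motor neurons, was the only one that could be tested (8.56 to 56.9 CPM), and Myl7 followed with 0.476 to 1.13 CPM. In the intermediate mesoderm list Pax8 was called higher in EpoR-null neural tubes (2.53 and 2.54 CPM against 0.605 to 0.909 CPM in controls, log2 fold change 1.65, exact test of edgeR, FDR 0.00222), and it was not called by the quasi-likelihood F-test of edgeR (FDR 0.0677) or in the exact test with any single library left out. No other gene of the 11 lists was called.

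**Figure D4:**
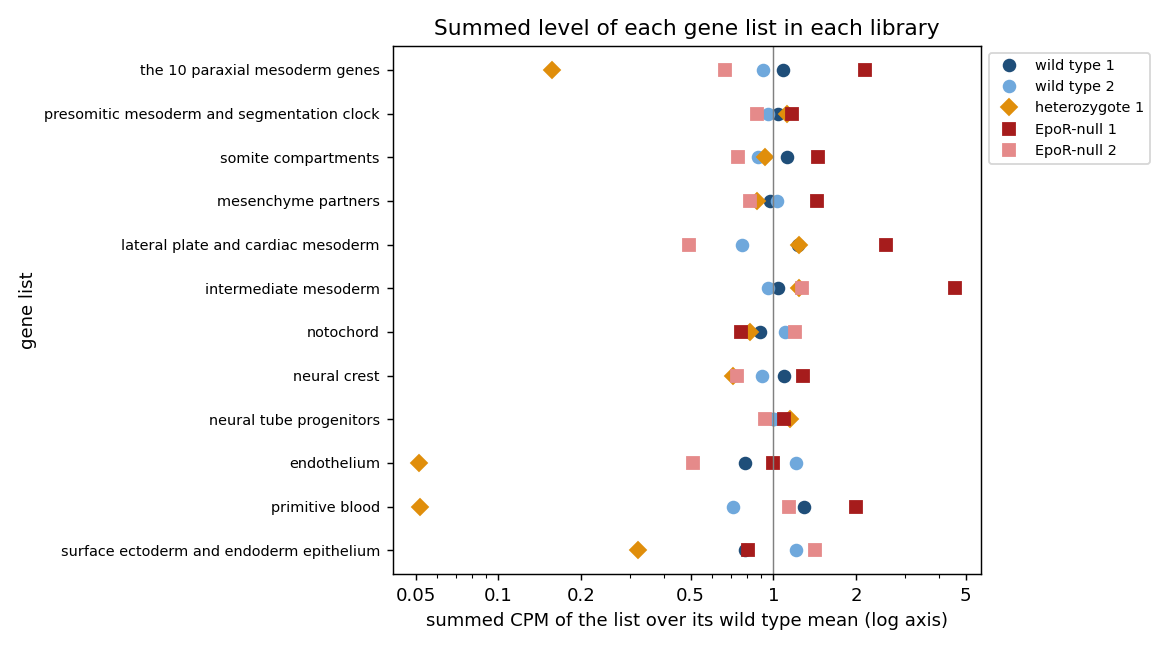
Summed CPM of each gene list relative to its wild type mean (log axis), 1 point per library. The 10 paraxial mesoderm genes, endothelium and primitive blood are lowest in the heterozygote (orange diamond), at 11.5, 11.4 and 43.8 CPM. So are the epithelium list (10.4 CPM) and, by a small margin, neural crest (184 CPM against 190 CPM in EpoR-null replicate 2). The neural tube progenitor list stays near its wild type mean in every library.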

How the data were processed

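PolyA-selected RNA of 5 neural tube samples was sequenced on an Illumina HiSeq. Trimming by the authors used Trimmomatic (0.32), alignment TopHat2 (2.1.0) and counting per gene symbol HTSeq (0.6.1), on mm9 according to the submitters' processing notes, whereas the paper's methods name hg19. The deposited values are raw read counts without normalization. The 5 summary lines of each table, such as reads outside genes (8.11% to 11% of unique reads), were not used.

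Samples were grouped by their labels. Those 12703 of 23284 genes that exceeded 1 CPM in 2 or more libraries were tested in R 4.3.3 with edgeR 4.0.16 (TMM, tagwise dispersions, exactTest, Benjamini-Hochberg adjustment over all genes tested), the test named in the paper's methods, and called at p < 0.001 and FDR < 0.05. Quasi-likelihood and likelihood-ratio tests of edgeR and DESeq2 1.42.0 were run beside it. The plain form of each of these tests was first run on simulated counts with the same dispersion for all genes. The fits with a replicate block, with offsets or with the heterozygote as its own group were not simulated. Lengths, GC content and positions came from GENCODE M21 (GRCm38), matched by symbol (90.7% of tested genes, all 10 members). By rule, the genes named were all members, called list genes (or, where none was called, the 2 with the most reads per list) and the 5 nearest profiles. Other genes named from the lists, such as Tbx18, Col3a1, Cdx2, T, Wnt3a, the nearly absent presomitic and muscle genes and those called with a library left out, were picked after their values were seen. The members and lists were chosen with earlier results of these data known. No pair of libraries agreed within sampling noise (lowest chi-square per degree of freedom 11.9).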

Additional observations from a re-analysis of the deposited data

How the results depend on the processing

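None of the 8 tested members was called under any alternative of the comparison of EpoR-null with control neural tubes, and under each setting that kept all 5 libraries, both other scalings included, their log2 fold changes stayed positive (a minimum of 10 reads in every library left 6 of the 8, and Tbx6, which had -0.12 there with FDR 0.965 in the exact test of edgeR). With single libraries left out they ranged from -0.55 to 2.19 for Meox2, -0.35 to 1.72 for Pax1, -0.048 to 2.07 for Foxc1, -0.18 to 1.65 for Twist1 and -1.37 to 1.48 for Prrx1, and from 0.15 to 1.58 for Meox1, Tcf15 and Foxc2. The number of all genes called moved from 613 to 0 with the quasi-likelihood F-test (3052 genes at an unadjusted p under 0.05), 1028 with DESeq2, 149 with the likelihood-ratio test and length and GC offsets, 940 at FDR < 0.05 alone, and between 119 (without wild type replicate 1) and 2332 (without EpoR-null replicate 1) with single libraries left out (296 without wild type replicate 2, 255 without the heterozygote, 987 without EpoR-null replicate 2). With the heterozygote as its own group, added after seeing the data, it was 0 (quasi-likelihood F-test) and 258 (likelihood-ratio test). The cause was not tested.

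Fitting replicate numbers as a replicate block, the quasi-likelihood F-test called 291 genes, and the likelihood-ratio test with offsets and block 157, with 0 members in each, and it changed no call of a member. The labels do not say what a number stands for. Over genes, the difference between wild type replicates 1 and 2 had a Pearson's r of 0.468 with that between EpoR-null replicates 1 and 2. Of 8 members, 7 were higher in number 1 in both genotypes. The share of all genes for which this held was not counted, so the 7 cannot be set against it. The single call among the other cell type markers, Pax8, fell to 0 with the quasi-likelihood F-test (with and without block), DESeq2 and the heterozygote as its own group, and the count was 0 to 5 with single libraries left out, as it was for presomitic, somite and mesenchyme genes. Wild type over heterozygote for the summed level of the members moved by less than the wild type spread under the other scalings. Tbx6 and Mesp2 were limited by depth.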

Other observations

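Of the 29 tested presomitic, somite and mesenchyme genes, 5 (17.2%) were called without EpoR-null replicate 1, against 18.5% of all genes, and 4 (13.8%) without EpoR-null replicate 2, against 7.81%; whether these shares differ was not tested. Without EpoR-null replicate 1, Cdx2 was called higher (log2 fold change 2.05) and Epha4 (-1.12), Pax7 (-1.64), Zeb1 (-1.01) and Zeb2 (-0.89) lower in the exact test of edgeR, and without EpoR-null replicate 2 Cdx2 (-3.96) and Wnt3a (-1.09) were called lower and Dll3 (0.96) and Vim (0.53) higher. In each of these fits a lone EpoR-null library is assumed to vary like the controls.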
